A study of Homo sapiens with 9 samples.

Results

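The 7 genes described here carry out and control the first steps of branched-chain amino acid breakdown: BCAT1, BCAT2, BCKDHA, BCKDHB, DBT, BCKDK and PPM1K. They were chosen by name from the 58735 genes of a count table of PANC-1, a human cell line established from a pancreatic ductal carcinoma, and 6 of them had enough counts to be tested among 15811 tested genes. The sample titles give 3 groups of 3 libraries, which are NC, the knockout ACSS2-KO-2 and the knockout ACSS2-KO-3, all made from polyadenylated RNA of the same line with no other treatment named. The treatment labels of the 6 knockout samples go up from ACSS2-KO by 1 per sample until ACSS7-KO, so the titles were followed. The labels do not say what NC, 2 and 3 stand for, whether each knockout was 1 clone or a pool, or whether separate cultures were used within a group. P-values therefore measure only how these libraries vary, and that variation may be technical.

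Leucine, isoleucine and valine are first transaminated, by BCAT1 in the cytosol or BCAT2 in mitochondria, which moves their amino group to alpha-ketoglutarate and yields glutamate and a branched-chain ketoacid. The ketoacid is then oxidised in mitochondria by the branched-chain ketoacid dehydrogenase complex, an irreversible step. The kinase BCKDK switches this complex off by phosphorylating it, and the phosphatase PPM1K switches it on again. ACSS2 makes acetyl-CoA from acetate, and the study's title names it together with BCAT1, branched-chain amino acids and pancreatic cancer. The libraries measure RNA and not protein, acetylation or enzyme activity.

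BCAT1 RNA was lower in both knockouts: ACSS2-KO-2 had 48.7% of the NC level and ACSS2-KO-3 had 8.3%. The latter was 14.8% once base composition and length were allowed for. BCAT2, which catalyses the same reaction, did not pass the main test in either comparison. Its direction in ACSS2-KO-3 depended on the fit, and it was called lower there once base composition and length were allowed for. In ACSS2-KO-2 the phosphatase PPM1K was the other member that changed, and it rose. That call was lost in 3 of the 9 fits that each left out 1 library. In ACSS2-KO-3 the complex subunits BCKDHB and DBT fell, while the kinase BCKDK rose and PPM1K fell, but the last pair did not pass once base composition and length were allowed for.

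Library totals were 14756572 to 17457190 counts, so that 3 counts, the limit allowed by a count of 0, correspond to 0.172 to 0.206 counts per 1000000 counts of the library (CPM). The 6 markers chosen for this line were the epithelial genes KRT7, KRT8, KRT18, KRT19 and EPCAM and the mesenchymal gene VIM. All were above 1 CPM in every group, with summed levels of 5492 to 7647 CPM per library. KRT7 (7.04 CPM in NC) and EPCAM (9.33 CPM) were low. In ACSS2-KO-3, edgeR called 3 of the 6 higher and 1, EPCAM, lower, against 31.2% and 32.1% of all tested genes. Once base composition and length were allowed for, 0 were higher and 4 lower, against 24.8% and 33%. The 10 immune, endothelial, acinar and islet markers were all under 1 CPM, with summed levels of at most 0.458 CPM, and INS, GCG and AMY2A had 0 counts. For ACSS2 itself the NC libraries gave 33.3, 30.6 and 28.3 CPM, those of ACSS2-KO-2 gave 15.1, 14.7 and 12.4 CPM, and those of ACSS2-KO-3 gave 7.19, 8.57 and 8.50 CPM, so its RNA was reduced in every knockout library but still present. Its log2 fold change was -1.13 in ACSS2-KO-2 (edgeR quasi-likelihood test, adjusted p = 5.26e-09) and -1.92 in ACSS2-KO-3 (adjusted p = 1.49e-14).

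Most genes differed in ACSS2-KO-3. In that knockout 63.3% of all tested genes passed the edgeR test at an adjusted p under 0.05, against 6.65% in ACSS2-KO-2. Fold changes in ACSS2-KO-3 followed the GC content of the transcript, with a Spearman correlation of 0.53 across 12903 protein-coding genes, against -0.02 in ACSS2-KO-2 (genes are not independent replicates). Transcripts under 38% GC had a median log2 fold change of -1.10 in ACSS2-KO-3, whereas transcripts of 58 to 60% GC had a median of 0.29. Fold changes of the members and other listed genes in ACSS2-KO-3 against NC are therefore given also from a fit with offsets. In it a smooth curve of GC content and length was removed from each library. The log2 fold change of ACSS2 in ACSS2-KO-3 was -2.27 in this fit (edgeR adjusted p = 3.525e-18).

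The members fall on both sides of this range of composition. The longest transcripts of BCAT1, DBT, BCKDHB and PPM1K had GC contents of 37.9%, 39.3%, 40.2% and 40.7%, and those of BCKDK, BCKDHA and BCAT2 had 58.1%, 59.1% and 60.6%. To show the contrast, stretches of 90 coding bases from GENCODE 29 transcripts (GRCh38) are printed 5′ to 3′ with every G and C in capitals, each being the window whose GC content is nearest to that of the whole coding sequence. The pairs are DBT against BCKDK, a subunit against its kinase, and BCAT1 against BCAT2, which share a reaction.
DBT, coding bases 19 to 108: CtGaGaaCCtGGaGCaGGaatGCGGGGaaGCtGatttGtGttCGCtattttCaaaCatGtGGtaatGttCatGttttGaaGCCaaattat
BCKDK, coding bases 142 to 231: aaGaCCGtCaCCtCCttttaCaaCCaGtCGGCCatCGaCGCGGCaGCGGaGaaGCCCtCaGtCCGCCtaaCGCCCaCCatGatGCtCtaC
BCAT1, coding bases 28 to 117: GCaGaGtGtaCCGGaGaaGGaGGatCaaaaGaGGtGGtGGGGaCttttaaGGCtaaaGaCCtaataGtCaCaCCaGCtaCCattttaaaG
BCAT2, coding bases 115 to 204: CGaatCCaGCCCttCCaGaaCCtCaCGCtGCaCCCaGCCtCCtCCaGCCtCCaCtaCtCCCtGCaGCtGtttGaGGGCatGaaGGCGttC
These windows hold 41.1% and 60.0% GC for DBT and BCKDK, and 45.6% and 61.1% for BCAT1 and BCAT2. Most of the BCAT1 transcript is not coding: the 7989 bases of its 3′ untranslated region have a GC content of 35.1%.

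**Figure D1:**
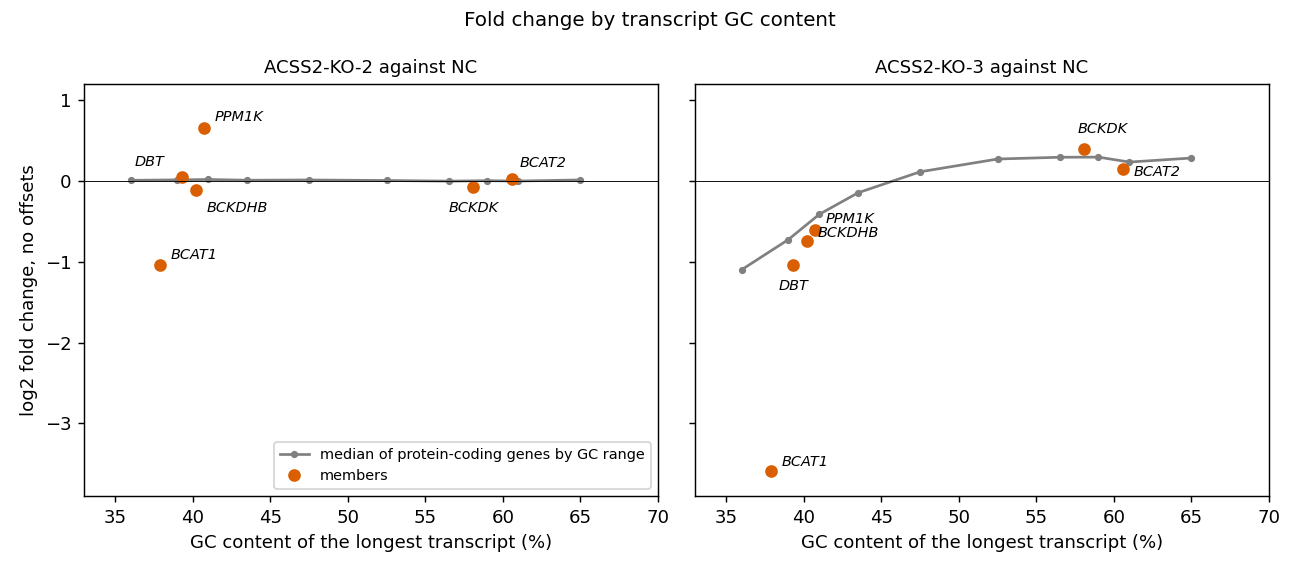
Log2 fold change without offsets (vertical axis) against GC content of the longest transcript in percent (horizontal axis), for ACSS2-KO-2 (left) and ACSS2-KO-3 (right) against NC. Orange points are the 6 tested members and the grey line joins medians of protein-coding genes by GC range, which lie near 0 in ACSS2-KO-2 and run from -1.10 to positive values in ACSS2-KO-3, with BCAT1 far below the line in both panels.

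BCAT1 (ENSG00000060982) lies on the minus strand of chromosome 12 at 24810022 to 24949459 (GRCh38). Genes on the opposite strand share 3.9% of its exon bases and had 0 counts. The NC libraries gave 20.5, 20.1 and 17.5 CPM, those of ACSS2-KO-2 gave 7.38, 11.2 and 9.70 CPM, and those of ACSS2-KO-3 gave 1.37, 1.64 and 1.78 CPM. The 3 groups did not overlap, and every ACSS2-KO-3 library lay below every ACSS2-KO-2 library. The underlying counts per library were 293 to 328 for NC, 129 to 171 for ACSS2-KO-2, then 21 to 27 for ACSS2-KO-3. In bulk RNA, fewer cells that express a gene and less RNA per cell cannot be told apart.

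The log2 fold change of BCAT1 was -1.04 ± 0.127 (SE) in ACSS2-KO-2 (edgeR adjusted p = 1.62e-06), or 48.7% of NC with a 95% interval of 40.6 to 58.3%. In ACSS2-KO-3 it was -3.59 ± 0.171 (edgeR adjusted p = 6.86e-16), or 8.3% of NC with an interval of 6.51 to 10.6%. With offsets for GC content and length it was -1.10 for ACSS2-KO-2 (edgeR adjusted p = 3.88e-08), but -2.76 for ACSS2-KO-3 (edgeR adjusted p = 2.77e-15), the latter being 14.8% of NC. BCAT1 thus fell in both knockouts under both fits, and its size in ACSS2-KO-3 was smaller with the offsets. The knockouts also differed, ACSS2-KO-3 being the lower (log2 difference -2.55, edgeR adjusted p = 4.48e-12; -1.66 with offsets, adjusted p = 3.80e-09).

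BCAT1 stood near the lower end of all fold changes. Among 14142 genes with at least 1 CPM in NC, 33 genes, BCAT1 included, had a fold change as low as that of BCAT1 or lower in ACSS2-KO-2, which is 0.233%. The number was 9 genes (0.0636%) in ACSS2-KO-3, and 16 with offsets.

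The promoter of BCAT1 is shown because this gene had the lowest fold change of the members in both knockouts. RefSeq gives 5 start sites for it; 300 bases around one of them lie at chr12:24949052-24949351 on the minus strand (GRCh38.p14). Capitals mark the letters CACGTG, an E-box of the kind bound by MYC and related factors, and TGATGCAA, a composite element of the kind bound by ATF4 with C/EBP proteins.
BCAT1 promoter: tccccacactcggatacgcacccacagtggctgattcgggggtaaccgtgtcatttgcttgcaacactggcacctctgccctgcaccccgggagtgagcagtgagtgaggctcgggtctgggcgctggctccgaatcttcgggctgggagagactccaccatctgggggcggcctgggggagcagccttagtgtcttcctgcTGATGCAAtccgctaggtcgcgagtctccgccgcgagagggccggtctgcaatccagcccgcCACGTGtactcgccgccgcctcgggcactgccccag
Counting the first transcribed base as 1, CACGTG began at position 15 and TGATGCAA at -48. CACGTG occurred on either strand in 2548 of 35116 RefSeq promoters of this length (7.3%) and TGATGCAA in 304 (0.9%). The other 4 BCAT1 start sites held neither, and neither did the single promoters of BCKDHA, BCKDHB, DBT, BCKDK and PPM1K. The shares are per promoter and do not allow for the printed site being 1 of 5. BCAT2 had no promoter in the set used and was not searched. GGGCGG, a GC-box searched the same way, began at -84 in the printed promoter and was in 15786 of the 35116 promoters. The letters are a description of the sequence, and no binding was measured.

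The genes whose pattern over the 9 libraries was most like that of BCAT1, by the root mean square difference of log2 CPM centred on NC among 14141 genes, were SLITRK6 (0.321), ZMAT1 (0.501), ZNF117 (0.523), CCDC144CP (0.637) and KLHL24 (0.637). The group means of SLITRK6 were 7.80, 4.83 and 0.600 CPM, in the order NC, ACSS2-KO-2, ACSS2-KO-3. Its log2 fold changes were -0.69 and -3.68, beside -1.04 and -3.59 for BCAT1. With offsets those in ACSS2-KO-3 were -2.82 for SLITRK6 and -2.76 for BCAT1. All 5 genes had transcripts of 33.2 to 38.4% GC, beside 37.9% for BCAT1.

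Genes beside BCAT1 were looked at after its values were known. Within 1.5 megabases on either side, 8 other genes were tested. In ACSS2-KO-2 only BHLHE41, a repressor of transcription, fell among them (log2 fold change -0.45, edgeR adjusted p = 0.000533), while all 8 ranged from -0.45 to 0.38. In ACSS2-KO-3, 7 of 8 fell, with a range of -2.04 to -0.094; with offsets 5 fell and the range was -1.34 to 0.30. None of these 8 reached the fold change of BCAT1 in either knockout.

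BCAT2 (ENSG00000105552), the mitochondrial transaminase, lies on the minus strand of chromosome 19 at 48795062 to 48811029 (GRCh38). The NC libraries gave 46.0, 42.7 and 42.4 CPM, those of ACSS2-KO-2 gave 47.2, 43.9 and 41.3 CPM, and those of ACSS2-KO-3 gave 51.2, 44.4 and 49.8 CPM. All 3 groups overlapped. The log2 fold change in ACSS2-KO-2 was 0.016 (edgeR adjusted p = 0.940), with a 95% interval of -0.13 to 0.16. In ACSS2-KO-3 it was 0.15 without offsets (edgeR adjusted p = 0.0741), 0.16 with median-of-ratios scaling (edgeR adjusted p = 0.0478) and -0.18 with offsets (edgeR adjusted p = 0.0177), so that its direction depended on the fit.

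Levels were also taken per kilobase of exon, which allows for annotated exon length but not for GC content. On this scale BCAT2 was at 9.59 ± 0.440 CPM per kb in NC (SD, n = 3) and BCAT1 at 1.64 ± 0.138. In ACSS2-KO-3 the levels were 10.6 ± 0.794 and 0.136 ± 0.0177 CPM per kb. The mitochondrial transaminase thus had the higher level per kilobase already in NC, with the GC contents of the 2 transcripts (60.6% and 37.9%) not allowed for. The ratio of BCAT2 to BCAT1 counts within a library was 2.25, 2.12 and 2.42 for NC, 6.37, 3.90 and 4.24 for ACSS2-KO-2, then 36.5, 26.6 and 27.4 for ACSS2-KO-3, with no overlap between groups. On the log2 scale the ratio differed from NC by 1.06 for ACSS2-KO-2, and by 3.72 for ACSS2-KO-3 (2.56 with offsets), and the exact 2-sided permutation test gave p = 0.1 for each, the smallest value that 3 against 3 libraries allow.

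**Figure D2:**
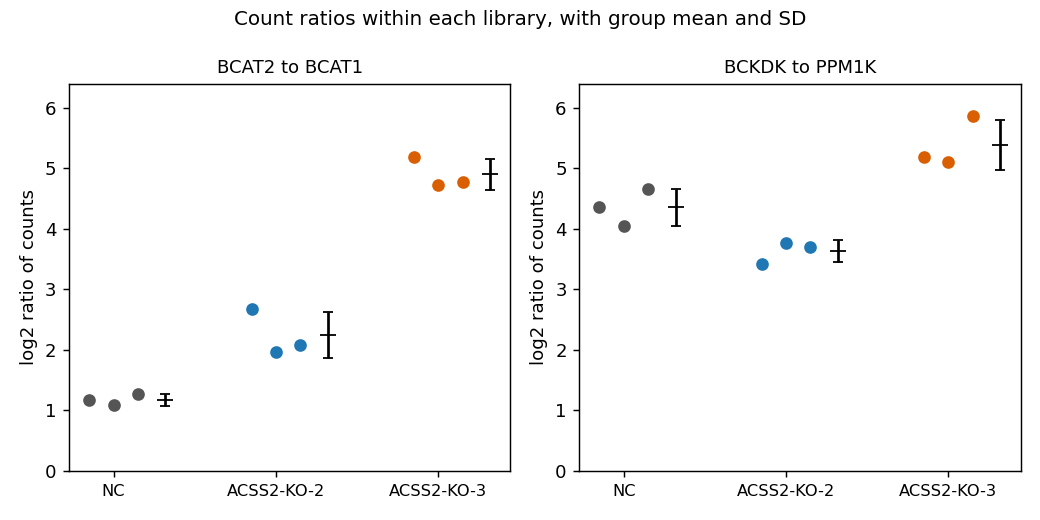
Log2 ratio of counts within each library (vertical axis) for BCAT2 to BCAT1 (left) and BCKDK to PPM1K (right), by group; each coloured point is a library and the black mark with its bar is the mean and SD of 3 libraries. The BCAT2 to BCAT1 ratio was higher in every knockout library than in NC, whereas the BCKDK to PPM1K ratio was lower in ACSS2-KO-2 and higher in ACSS2-KO-3.

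The ketoacid dehydrogenase has a decarboxylase made of BCKDHA and BCKDHB (E1 alpha and beta) and a transacylase core, DBT (E2). BCKDHB (ENSG00000083123) is on the plus strand of chromosome 6 at 80106647 to 80346270 (GRCh38). The NC libraries gave 28.6, 26.0 and 27.4 CPM, those of ACSS2-KO-2 gave 25.1, 27.0 and 23.6 CPM, and those of ACSS2-KO-3 gave 15.3, 14.6 and 19.3 CPM. The first pair of groups overlapped, and ACSS2-KO-3 lay below both. The log2 fold change was -0.12 in ACSS2-KO-2 (edgeR adjusted p = 0.525; 95% interval -0.31 to 0.068) and -0.74 in ACSS2-KO-3 (edgeR adjusted p = 1.78e-07), which became -0.27 with offsets (edgeR adjusted p = 0.0172), or 83.1% of NC.

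DBT (ENSG00000137992) is on the minus strand of chromosome 1 at 100186919 to 100249834 (GRCh38). The NC libraries gave 20.1, 24.4 and 21.4 CPM, those of ACSS2-KO-2 gave 21.3, 21.6 and 25 CPM, and those of ACSS2-KO-3 gave 9.41, 13.6 and 8.91 CPM. Here too NC and ACSS2-KO-2 overlapped and ACSS2-KO-3 was lower than both. The log2 fold change was 0.046 in ACSS2-KO-2 (edgeR adjusted p = 0.878; 95% interval -0.18 to 0.28). In ACSS2-KO-3 it was -1.04 (edgeR adjusted p = 3.67e-08), and -0.36 with offsets (edgeR adjusted p = 0.00419), or 77.7% of NC. BCKDHB and DBT thus fell in ACSS2-KO-3 under both fits, and by less with offsets.

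BCKDHA (ENSG00000248098), on the plus strand of chromosome 19 at 41397460 to 41425005 (GRCh38), had next to no counts: the NC libraries had 3, 4 and 1, those of ACSS2-KO-2 had 1, 0 and 0, and those of ACSS2-KO-3 had 0, 2 and 0. The totals of 8, 1 and 2 counts have exact 95% Poisson intervals of 3.45 to 15.8, 0.0253 to 5.57 and 0.242 to 7.23, which cover counting error only, and the gene was not tested. Its annotation, looked at after the counts were seen, overlaps a longer gene: AC011462.1 on the same strand shares 63.8% of the exon bases of BCKDHA and 77.2% of its transcript BCKDHA-201 (1623 of 2103 bases), and was itself at 0 counts. Among 310 protein-coding genes that share 50 to under 80% of their exon bases with a gene on the same strand, 45.5% had fewer than 20 counts over all libraries, against 28.1% of 16738 genes that share under 1%. How reads in shared exons were counted is not given in the sources used here, and its part in these low counts was not tested, so the counts give no level for the E1 alpha subunit.

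BCKDK (ENSG00000103507), the kinase that inactivates the complex, is on the plus strand of chromosome 16 at 31106107 to 31112791 (GRCh38). The NC libraries gave 99.1, 94.0 and 96.6 CPM, those of ACSS2-KO-2 gave 91.5, 91.8 and 91.5 CPM, and those of ACSS2-KO-3 gave 129, 123 and 129 CPM. The ACSS2-KO-2 libraries lay just under NC and the ACSS2-KO-3 libraries above it, without overlap. The log2 fold change was -0.076 in ACSS2-KO-2 (edgeR adjusted p = 0.488). In ACSS2-KO-3 it was 0.40 (edgeR adjusted p = 3.12e-07), or 131% of NC, and 0.066 with offsets (edgeR adjusted p = 0.242), so the rise was not called once GC content and length were allowed for.

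PPM1K (ENSG00000163644), the mitochondrial phosphatase that reactivates the complex, is on the minus strand of chromosome 4 at 88257620 to 88284769 (GRCh38). The NC libraries gave 4.80, 5.63 and 3.82 CPM, those of ACSS2-KO-2 gave 8.52, 6.71 and 6.99 CPM, and those of ACSS2-KO-3 gave 3.53, 3.53 and 2.19 CPM. ACSS2-KO-2 lay above NC and ACSS2-KO-3 below it, without overlap, from counts of 32 to 149 per library. In ACSS2-KO-2 PPM1K rose by a log2 fold change of 0.65 (edgeR adjusted p = 0.0198), to 157% of NC with a 95% interval of 122 to 201%, and by 0.61 with offsets (edgeR adjusted p = 0.0182). In ACSS2-KO-3 it fell to 65.5% of NC (log2 fold change -0.61, edgeR adjusted p = 0.00913), whereas with offsets the value was -0.15 (edgeR adjusted p = 0.543).

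The PPM1K calls rested on single libraries. In ACSS2-KO-2 the call was lost without NC replicate 1 (log2 fold change 0.66, edgeR adjusted p = 0.0539), NC replicate 3 (0.51, adjusted p = 0.122), or else ACSS2-KO-2 replicate 1 (0.53, adjusted p = 0.108), and in ACSS2-KO-3 without NC replicate 2 (-0.46, adjusted p = 0.0753), or else ACSS2-KO-3 replicate 3 (-0.42, adjusted p = 0.0781). The difference between the knockouts held in both fits, at -1.26 (edgeR adjusted p = 1.47e-06) and -0.75 with offsets (edgeR adjusted p = 0.000971). Counts of the kinase over counts of the phosphatase were 20.5, 16.6 and 25.1 for NC, 10.7, 13.6 and 13.0 for ACSS2-KO-2, then 36.2, 34.6 and 58 for ACSS2-KO-3, so the ratio moved to opposite sides of NC. The log2 ratio differed from NC by -0.72 and 1.03 (0.23 with offsets in ACSS2-KO-3), each with an exact permutation p = 0.1, again the smallest possible.

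**Figure D3:**
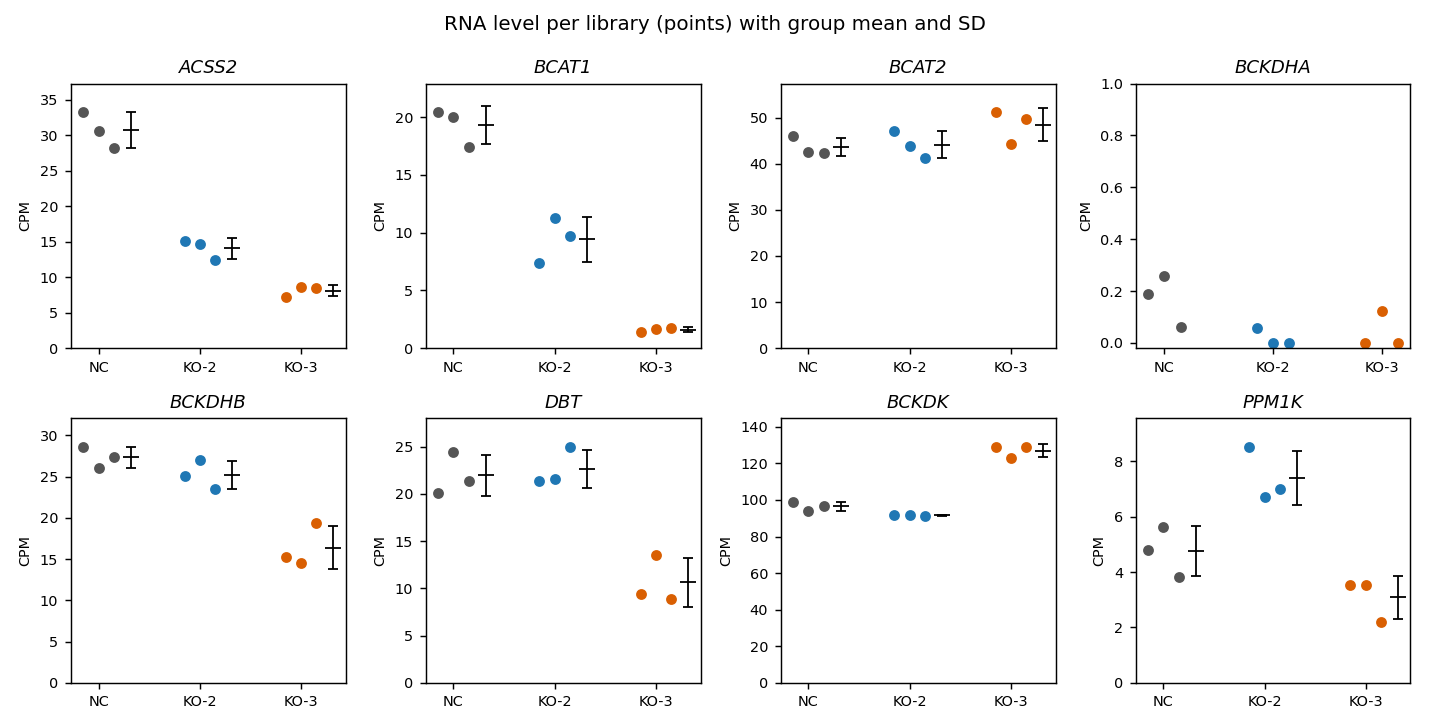
RNA level in CPM (vertical axes, each gene on its own scale) of ACSS2 and the 7 members in each library; points are libraries, and the black mark with its bar is the mean and SD of 3 libraries (none is drawn for BCKDHA, which had 0 to 4 counts). BCAT1 steps down from NC to ACSS2-KO-2 and to ACSS2-KO-3, BCAT2 overlaps between groups, and PPM1K is highest in ACSS2-KO-2 and lowest in ACSS2-KO-3.

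In NC the order of levels per kilobase was BCKDK (24.9 ± 0.665 CPM per kb, SD, n = 3), BCAT2 (9.59 ± 0.440), BCKDHB (6.72 ± 0.321), DBT (1.94 ± 0.196), BCAT1 (1.64 ± 0.138) and PPM1K (0.418 ± 0.0800). BCKDHA is left out of this order because its counts give no level. The gap between DBT and BCAT1 was smaller than their summed SDs, and the other neighbours were further apart than that. In ACSS2-KO-3 BCAT1, at 0.136 CPM per kb, was below PPM1K at 0.271 ± 0.0677.

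In ACSS2-KO-2, 1 of 6 tested members was higher and 1 was lower, against a background of 3.81% and 2.84% of all tested genes, and the median log2 fold change of the members was -0.030. The counts were the same with offsets, where 10.4% of all genes were called (5.1% higher and 5.29% lower). Here 3 of the 6 members had libraries that did not overlap NC, against 24.8% of all genes.

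In ACSS2-KO-3, 1 member was higher and 4 were lower, against 31.2% and 32.1% of all tested genes, with a median of -0.68 beside -0.037 for all genes. With offsets, 0 of 6 were higher and 4 lower, against 24.8% and 33% of all genes (57.8% in either direction), with a median of -0.22 beside -0.086. Here 5 of 6 members did not overlap NC, against 66.9% of all genes. Most genes were called: the 5 calls among 6 members (4 with offsets) stand beside 63.3% of all genes (57.8% with offsets). The 4 of 6 called lower are a larger share than the 32.1% of all genes (33% with offsets). Whether 6 genes can be told from that share was not tested, so these counts are not read as a result about the members.

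Between the knockouts, 1 of 6 members was higher in ACSS2-KO-3 (BCKDK) and 4 were lower (BCAT1, BCKDHB, DBT and PPM1K), against 61.7% of all genes called in either direction, 31.2% higher and 30.5% lower. With offsets again 1 was higher (BCKDK) and 4 were lower (BCAT1, BCAT2, DBT and PPM1K), against 54.2% called, 23.1% higher and 31.1% lower. The libraries of 5 of 6 members did not overlap, beside 65.9% of all genes. Both knockouts share the NC libraries, so their fold changes are given side by side.

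**Figure D4:**
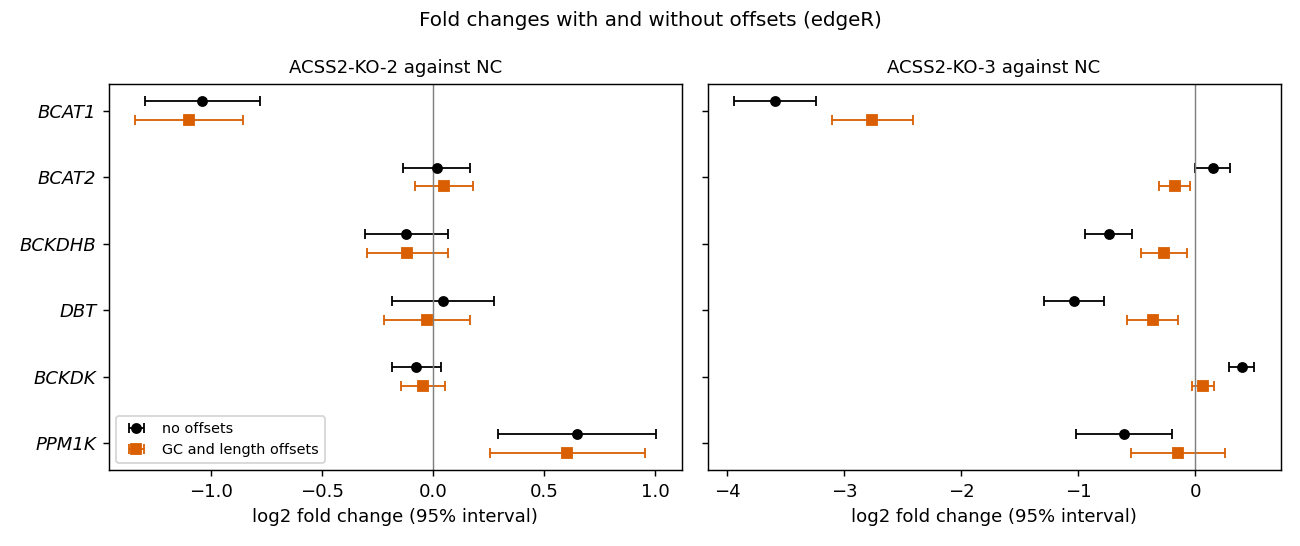
Log2 fold change with its 95% interval (horizontal axes, not on the same scale) of the 6 tested members in ACSS2-KO-2 (left) and ACSS2-KO-3 (right) against NC, from edgeR without offsets (black circles) and with GC and length offsets (orange squares). In ACSS2-KO-2 both fits give nearly the same values. In ACSS2-KO-3 the values of BCAT1 (-3.59 to -2.76), BCKDHB, DBT, BCKDK and PPM1K move toward 0 and BCAT2 changes sign.

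The enzymes after the committed step, with DLD, the dehydrogenase subunit (E3) shared with the pyruvate and ketoglutarate complexes, were counted over a list of 20 genes. In ACSS2-KO-2, 0 of 20 passed in edgeR, DESeq2 or limma-voom, against 6.65% of all tested genes in edgeR. An unadjusted edgeR p under 0.05 was seen for 2, and the fold changes ranged from -0.18 to 0.14. In ACSS2-KO-3, 6 rose and 9 fell, with a median log2 fold change of -0.17, and with offsets 4 rose and 7 fell. These 15 of 20 calls lie near the share of all tested genes, 31.2% higher and 32.1% lower (24.8% and 33% with offsets). ACADSB, which oxidises the isoleucine-derived acyl-CoA, was at 32.7 ± 0.702 CPM in NC against 16.1 ± 1.71 CPM in ACSS2-KO-3 (SD, n = 3), a log2 fold change of -1.02 (edgeR adjusted p = 4.79e-11) or -0.35 with offsets. AUH, a hydratase of the leucine route, fell by 0.51 in both fits on the log2 scale. HSD17B10, of the isoleucine route, rose by 0.43 (0.17 with offsets), and MCCC2, a subunit of the leucine-route carboxylase, rose by 0.24 (0.13 with offsets). DLD was lower by a log2 fold change of -0.30 without offsets (edgeR adjusted p = 9.45e-05) and higher by 0.30 with them (edgeR adjusted p = 1.58e-05), so it has no direction that holds in both.

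The list of branched-chain amino acid carriers held 7 genes. In ACSS2-KO-2, 2 of them rose (2 rose and 1 fell with offsets), namely SLC6A15 and SLC7A8. Of all tested genes, 3.81% rose and 2.84% fell (5.1% and 5.29% with offsets). SLC6A15, a sodium-dependent carrier of neutral amino acids, rose from 0.892 ± 0.149 CPM to 6.82 ± 0.476 CPM (log2 change 2.93, edgeR adjusted p = 5.00e-10). SLC7A8 is a light chain of the L-type exchanger. SLC7A8 totalled 2 counts over the NC libraries, 70 over those of ACSS2-KO-2, and 0 over those of ACSS2-KO-3, a ratio of 34.3 between ACSS2-KO-2 and NC with a 95% counting interval of 9.14 to 288 (edgeR adjusted p = 1.54e-05). Both NC counts were in replicate 1; without it NC was at 0 counts, and ACSS2-KO-2 was at least 7.55-fold higher, with the floor of 3 counts per library in place of the 0. In ACSS2-KO-3, 4 of 7 rose and 1, SLC6A15, fell (log2 fold change -1.26, edgeR adjusted p = 0.00483), though SLC6A15 did not pass with offsets (-0.51, adjusted p = 0.269), where 3 rose and 1 fell. Of all tested genes, 31.2% rose and 32.1% fell in this comparison (24.8% and 33% with offsets), and without ACSS2-KO-3 replicate 3 the carriers that fell numbered 2. SLC7A5, the main light chain for leucine uptake, averaged 546 ± 22.6 CPM in NC and 539 ± 10.8 CPM with ACSS2-KO-2, against 1261 ± 64.5 CPM with ACSS2-KO-3, with a log2 fold change of 1.21 (0.88 with offsets) in the last. Its partner chain SLC3A2 rose by 0.82 (0.49 with offsets) and SLC25A44, the mitochondrial carrier of branched-chain amino acids, by 0.54 (0.21 with offsets).

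Among 13 genes of the sister pyruvate and ketoglutarate dehydrogenases and their kinases and phosphatases, 0 passed in ACSS2-KO-2 in edgeR, DESeq2 and limma-voom. The edgeR test called 6.65% of all tested genes in that comparison, and 1 of the 13 had an unadjusted edgeR p under 0.05. The count lower became 1 when any of the 3 ACSS2-KO-3 libraries was left out of the fit. With offsets 1 of the 13 was lower, PDK1 (log2 fold change -0.43, edgeR adjusted p = 0.00370), against 5.29% of all tested genes. In ACSS2-KO-3, 5 rose and 3 fell (4 and 2 with offsets), against 31.2% and 32.1% of all tested genes (24.8% and 33%). PDK1, a kinase that inactivates pyruvate dehydrogenase, fell by 1.07 on the log2 scale (0.44 with offsets), while OGDH, the E1 subunit of the ketoglutarate complex, rose by 0.60 (0.26 with offsets), PDPR, a regulator of the pyruvate dehydrogenase phosphatase, by 0.48 (0.26 with offsets) and DLAT, the E2 of pyruvate dehydrogenase, by 0.19 (0.30 with offsets).

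DBT works only with lipoic acid attached. Of 6 genes of protein lipoylation, 0 passed in ACSS2-KO-2 in edgeR, DESeq2 or limma-voom and 0 had an unadjusted edgeR p under 0.05. Of all tested genes, 6.65% passed there in edgeR. In ACSS2-KO-3, 2 rose and 2 fell (1 and 2 with offsets), against 31.2% and 32.1% of all tested genes (24.8% and 33%). LIPT1, the transferase that places lipoate on E2 proteins, was at 5.32 ± 0.406 CPM in NC against 2.40 ± 0.303 CPM in ACSS2-KO-3 and fell by 1.15 on the log2 scale (0.73 with offsets). LIAS, which makes the lipoyl group, fell by 0.43 (0.50 with offsets), and FDX1, a ferredoxin that supplies electrons for this, rose by 0.37 (0.63 with offsets).

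Glutamate, the other product of transamination, is used and made by a list of 10 enzymes. In ACSS2-KO-2 only GLUL, glutamine synthetase, passed the edgeR test among them, beside 6.65% of all tested genes. GLUL rose from 1.09 ± 0.295 to 12.5 ± 0.695 CPM (log2 change 3.52, edgeR adjusted p = 1.004e-12). In ACSS2-KO-3, 5 rose and 2 fell (4 and 3 with offsets), again against 31.2% and 32.1% of all genes (24.8% and 33%), and GLUL, at 2.53 ± 0.722 CPM, rose by 1.21 (0.96 with offsets). ASNS, which uses glutamine to make asparagine, fell by 0.67 (0.84 with offsets), and GOT2, the mitochondrial aspartate transaminase, rose by 0.58 (0.28 with offsets).

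**Figure D5:**
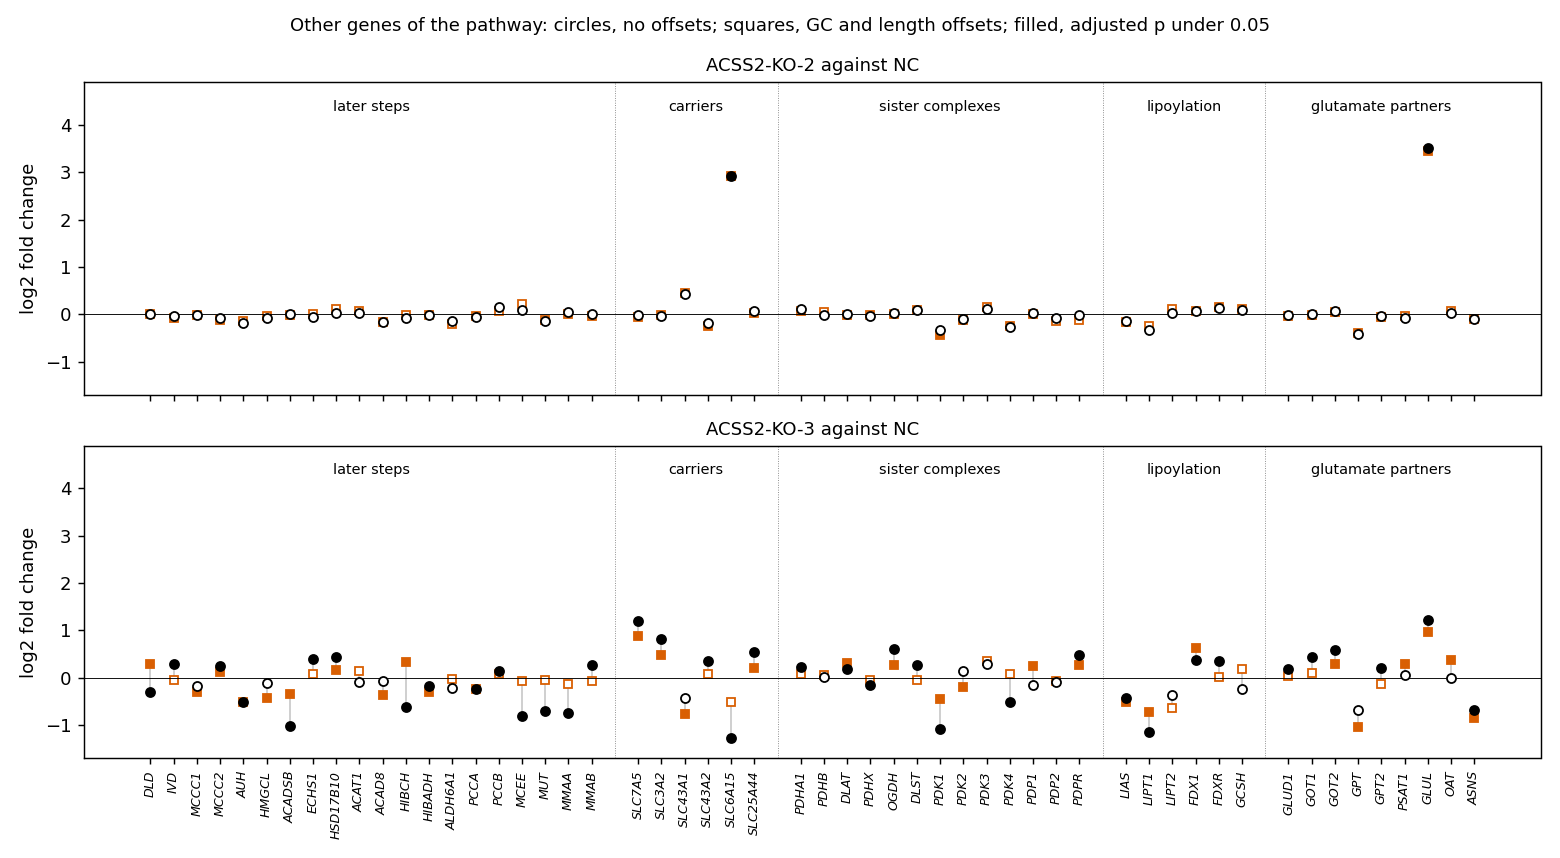
Log2 fold change (vertical axes) of other listed genes (horizontal axis, grouped by list) in ACSS2-KO-2 (top) and ACSS2-KO-3 (bottom) against NC; circles are edgeR without offsets, squares with GC and length offsets, and filled marks passed at an adjusted p under 0.05. SLC7A8, with 2 counts in NC and 0 in ACSS2-KO-3, is not drawn; in ACSS2-KO-2 SLC6A15 and GLUL stand far above the others, which lie close to 0, while ACSS2-KO-3 has filled marks in every list and on both sides of 0.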

How the data were processed

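Polyadenylated RNA of 9 PANC-1 libraries was sequenced as paired, dUTP-marked fragments, per the labels' protocols. The authors deposited whole-number counts per gene, unscaled, in 1 table. The submitters' processing notes name cutadapt 1.9, HISAT2 2.2.1, StringTie 2.1.6, DESeq2 and edgeR, with GRCh38 as the build. Counting and strand settings: not given in the sources used here. All 58735 identifiers matched GENCODE 29 by position.

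Counts were scaled with TMM factors and filtered with filterByExpr (minimum count 10, minimum total 15), leaving 15811 genes, in edgeR 4.0.16 (R 4.3.3). A single quasi-likelihood fit of the 9 libraries, which estimated 1 mean for each group and kept 6 residual degrees of freedom, gave 2-sided p-values. Benjamini-Hochberg adjustment covered every tested gene, with a threshold of 0.05. The common dispersion was 0.00291. CPM use the TMM factors. Levels per kilobase use the exon length of the annotation. Offsets were smooth functions of GC content and log2 length fitted per library (mgcv 1.9.3). Ratios used counts plus 0.5. DESeq2 1.42.0, limma 3.58.1 (voom), other scaling, no filter, 6 libraries only, a replicate block and leaving out libraries were alternatives. The BCKDHA to BCKDHB ratio had been planned and was not computed, as BCKDHA had too few counts.

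The members and lists were chosen with earlier results of these data known. Text names all members, ACSS2 and DLD. From the other lists it names every gene that passed in ACSS2-KO-2, up to 4 per list, and up to 4 per list with the largest folds in ACSS2-KO-3 that passed with 1 sign in both fits. It also names the 5 genes nearest to BCAT1 in pattern. Genes chosen otherwise are named as such, and 1 gene that the rule takes is not reported here. Replicate numbers were checked for pairing: residuals of same-numbered libraries correlated at -0.041 to 0.056, none over 0.1. No pairing was seen, though a weak one could be missed, and the main fit did not use the numbers. No 2 libraries of a group agreed within sampling noise (chi-square per degree of freedom 1.85 to 4.47). On simulated data for ACSS2-KO-2 against NC (15436 genes), 78 of 94 changes of 2-fold and 58 of 98 of 1.5-fold were recovered. For ACSS2-KO-3 against NC (15466 genes) the numbers were 78 of 98 and 73 of 99. The simulation changed few genes and held no GC trend, so its rates do not describe the real ACSS2-KO-3 comparison.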

Additional observations from a re-analysis of the deposited data

Results flagged for a closer look

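For 26 of the genes named above, the test of ACSS2-KO-3 against ACSS2-KO-2 itself passed (edgeR adjusted p from 3.67e-17 to 0.0337). Of all tested genes, 61.7% passed in this comparison (54.2% with offsets). Many of the 26 were named for their fold against NC in these same libraries, so their number is not separate support for a difference. With offsets 21 of the 26 passed in the same direction, 4 did not pass (BCKDHB, HSD17B10, PDK1 and LIPT1), and DLD passed in the opposite direction. Some differences were smaller in size with offsets (DBT -0.34, ACADSB -0.33) and others larger (ACSS2 -1.13, FDX1 0.56). The log2 differences, ACSS2-KO-3 minus ACSS2-KO-2, were as follows, without offsets where not stated.

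Among the members, BCAT1 differed by -2.55, PPM1K by -1.26, DBT by -1.08, BCKDHB by -0.62 and BCKDK by 0.47, and the targeted gene ACSS2 by -0.80. BCAT1 and ACSS2 RNA were thus both lower in ACSS2-KO-3, as were 30.5% of all tested genes. Whether the 2 levels are related was not tested. Of the later steps and their shared subunit, ACADSB differed by -1.03, AUH by -0.33, HSD17B10 by 0.41, MCCC2 by 0.33 and DLD by -0.30 (0.28 with offsets).

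Of the carriers, SLC7A5 differed by 1.23, SLC3A2 by 0.85, SLC25A44 by 0.48 and SLC6A15 by -4.19. SLC7A8 was at 1.41 CPM in ACSS2-KO-2 and at 0 counts in ACSS2-KO-3, and was at least 7.23-fold higher in ACSS2-KO-2, with the mean floor of 3 counts per library (0.195 CPM) in place of the 0. Among the sister complexes OGDH differed by 0.57, PDPR by 0.49, DLAT by 0.17 and PDK1 by -0.73. For lipoylation the differences were -0.83 for LIPT1, -0.30 for LIAS and 0.31 for FDX1. Of the glutamate enzymes GLUL differed by -2.31, ASNS by -0.57 and GOT2 by 0.52.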

How the results depend on the processing

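BCAT1 fell in both knockouts under every alternative run. When single libraries were left out, its log2 fold change was -1.18 to -0.89 for ACSS2-KO-2, and -3.66 to -3.49 for ACSS2-KO-3. With offsets it was -1.10 for ACSS2-KO-2, and -2.76 for ACSS2-KO-3, which lies outside the latter range. The GC and length offsets changed the most results. In ACSS2-KO-2 they raised the count of genes called from 1052 to 1642, with 49.1% of calls higher in place of 57.3%, and turned DBT to -0.027. In ACSS2-KO-3 the share of calls that were higher went from 49.4% to 42.9%. There they turned BCAT2 to -0.18 (edgeR adjusted p = 0.0177) and DLD to 0.30, and took BCKDK to 0.066 and PPM1K to -0.15, both no longer called. They moved the log2 ratio difference of BCAT2 to BCAT1 to 2.56 and that of BCKDK to PPM1K to 0.23. Between the knockouts they turned BCAT2 to -0.23 (edgeR adjusted p = 0.00298) and took BCKDHB to -0.15, not called. Median-of-ratios scaling put BCAT2 in ACSS2-KO-3 just past the threshold at 0.16. Beyond the offsets' own construction, the cause was not tested.

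Leaving out single libraries gave 666 to 1295 genes called in ACSS2-KO-2 (lowest without ACSS2-KO-2 replicate 2) and 1 to 2 members called. PPM1K ranged from 0.51 to 0.79 for ACSS2-KO-2, and from -0.73 to -0.42 for ACSS2-KO-3. In ACSS2-KO-2, where neither was called, BCAT2 ranged from -0.036 to 0.062 and DBT from -0.031 to 0.13. In ACSS2-KO-3 BCAT2 ranged from 0.11 to 0.22 and was called without NC replicate 1 or ACSS2-KO-3 replicate 2. Against ACSS2-KO-2 it ranged from 0.091 to 0.20 and was called without ACSS2-KO-2 replicate 1 or ACSS2-KO-3 replicate 2. With the replicate block 1113 genes were called for ACSS2-KO-2, and 10022 for ACSS2-KO-3, with BCAT1 at -1.05 and -3.60. The block changed no member's call. Of 720 values of list counts, single listed genes and ACSS2 under alternatives, 710 kept their direction and call.

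BCKDHA had too few counts to be compared. BCAT1 in ACSS2-KO-3 (21 to 27 counts per library) and PPM1K (32 to 149) rest on low counts.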
